A study of Drosophila melanogaster with 58 samples.

Results

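The genes described here encode 10 components of basement membranes and related extracellular matrix in Drosophila melanogaster: Pxn, Ppn, LanA, LanB1, LanB2, vkg, Col4a1, SPARC, Ndg and trol. They were chosen by name, through the gene symbol or older symbol of each array probe in the platform annotation, and not by their values. They are 10 of the 11663 genes named on the array, measured by 11 of its 23808 probes. The gene trol has a pair of probes and each of the others has 1.

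Basement membranes are thin sheets of matrix that underlie epithelia and wrap muscles, nerves and gut. Laminin trimers and type IV collagen each form a network, nidogen and perlecan connect the networks, and peroxidasin cross-links the collagen. In the fly embryo much of this matrix is secreted by haemocytes, the blood cells that spread from the head mesoderm, and some of it by the fat body, muscle, glia and other tissues. The transcription factor encoded by gcm (glial cells missing) is needed in most embryonic glia and in the plasmatocytes, the phagocytic haemocytes.

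Whole embryos were compared on 58 two-colour arrays, each with perturbed embryos in one colour and stage-matched wild type in the other. In 33 gain-of-function arrays, embryos from the cross of Gal4 line MZ1060 to the UAS-gcm stock B5446 (ectopic gcm) were set against mRNA pooled equally from those parental lines, at each stage from 9 to 16, with 5 arrays at stage 14 and 4 at each of the other stages. In 25 loss-of-function arrays, homozygous gcmN7-4 embryos were set against OregonR embryos handled in the same way, at stages 10 to 14 and 16, with 5 arrays at stage 10 and 4 at each of the other stages. The mutants carried no GFP balancer and were picked by machine for lack of GFP, from a Kr-GFP balancer at stages 10 to 13 and a Ubi-GFP balancer at stages 14 to 16. Embryos of both experiments came from one-hour egg lays at 25°C, and development was at 29°C or 18°C, per the series description, with 29°C in the labels of some gain-of-function arrays. The cells in which MZ1060 drives gcm are not given in the sources used here, the mutants and OregonR differ in genetic background as well as in gcm, and an age of the embryos beyond their stage is not given.

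All values below are log2 ratios of perturbed over wild-type signal, with each array's median set to 0, so that -1 stands for a halved level relative to the median transcript. A ratio carries no level, so no gene is compared with another for abundance. Stage means given with an SD are plain means over arrays. Their p-values, the stage medians and the values with an array left out come from a linear model with a dye term, described below, whose fitted stage values can differ from the plain means. In RNA from whole embryos, fewer cells of a type and less RNA per cell cannot be told apart. Arrays measured between 10822 and 23253 probes, and their medians before centring lay between -1.96 and 1.22. The targeted gene followed the labels on average: gcm was at 1.35 ± 0.10 (SE) over the gain-of-function stages and at -0.95 ± 0.12 over the loss-of-function stages. It was not called at 4 of the 14 stages. At gain-of-function stages 9 and 10 gcm was at 0.13 ± 0.27 and 0.92 ± 0.37 (SD, n = 4, adjusted p = 0.876 and 0.0548). In the mutants its means at stages 12 and 13 were -0.30 ± 0.81 and -0.63 ± 0.61 (adjusted p = 0.66 and 0.181). On single mutant arrays gcm was above wild type at replicate 4 of stage 12, at 0.74, and at replicate 1 of stage 16, at 0.27. The dyes of replicate 4 of stage 12 were kept as labelled, but its direction is unsure, and if the label were wrong the sign of its values would turn. As labelled, Pxn on that array was at -0.77, below 0 as on every mutant array that measured it. The mean of the maternal RNA list described below was at 1.19 on that array as labelled, and it was above 0 on every array.

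The loss-of-function average, the mean of the 6 stages, asked which transcripts differed in embryos without gcm. Of the 10 genes 7 fell and 0 rose. The largest falls were those of Pxn, at -1.71 ± 0.15 (SE), and Ppn, at -1.04 ± 0.09. Smaller falls were measured for SPARC, vkg, Ndg and the laminin genes LanB1 and LanB2, between -0.54 and -0.28. LanA, Col4a1 and trol did not pass the test. Over all tested probes 27.6% were called in either direction and 13.8% lower, at a Benjamini-Hochberg adjusted p under 0.05 from a linear model with variances moderated by limma. The median of the 10 genes was -0.44, beside 0.0015 over all tested probes.

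Pxn encodes peroxidasin, a haem peroxidase that cross-links type IV collagen. Its 4 measured values at stage 10 of the mutants were -0.98, -1.24, -2.57 and -2.81, and those at stage 11 were -2.01, -2.50, -1.90 and -2.31. At stage 12 they were -0.87, -1.24, -1.82 and -0.77, and at stage 13 -1.26, -2.50, -3.10 and -1.29. Every one of these arrays had less Pxn RNA in the mutants than in OregonR. Values at stage 14 were -0.88, -1.70, -1.98 and -0.95, and at stage 16 they were -2.03, -1.88, -2.24 and -1.05. Pxn was thus lower on 24 of 24 arrays, and it was the only one of the 10 genes called at each of the 6 stages. Stage means ran from -1.17 ± 0.47 (SD, n = 4) at stage 12 to -2.18 ± 0.28 at stage 11. The average fall was 3.28-fold (adjusted p = 1.31e-12), with a 95% interval of -2.01 to -1.42. Single arrays decided some stage calls of Pxn: leaving 1 array out raised its adjusted p to at most 0.18 at stage 12, 0.159 at stage 14 and 0.0608 at stage 16, with Pxn still at -1.02, -1.19 and -1.46.

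Ppn encodes papilin, a sulphated glycoprotein of basement membranes related to the ADAMTS proteases. In the mutants it was at -1.65, -1.47, -1.55, -1.64 and -1.71 on the 5 arrays of stage 10, a spread of 0.09 (SD) around -1.61. At stage 11 its values were -1.92, -0.34, -2.18 and -2.11, and at stage 13 they were -1.95, -2.10, -1.48 and -0.70. All arrays of these 3 stages lay below 0, and the gene was called lower at each of them. At stage 12 its values were -0.54 and -1.13 on the arrays with mutants in Cy3 and 0.37 and 0.31 on those with mutants in Cy5. At stages 14 and 16 its means were -0.42 ± 0.47 and -0.53 ± 0.43 (SD, n = 4), and neither these stages nor stage 12 passed the test. The average fall was 2.05-fold (adjusted p = 2.69e-12), lower on 22 of 25 arrays.

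**Figure D1:**
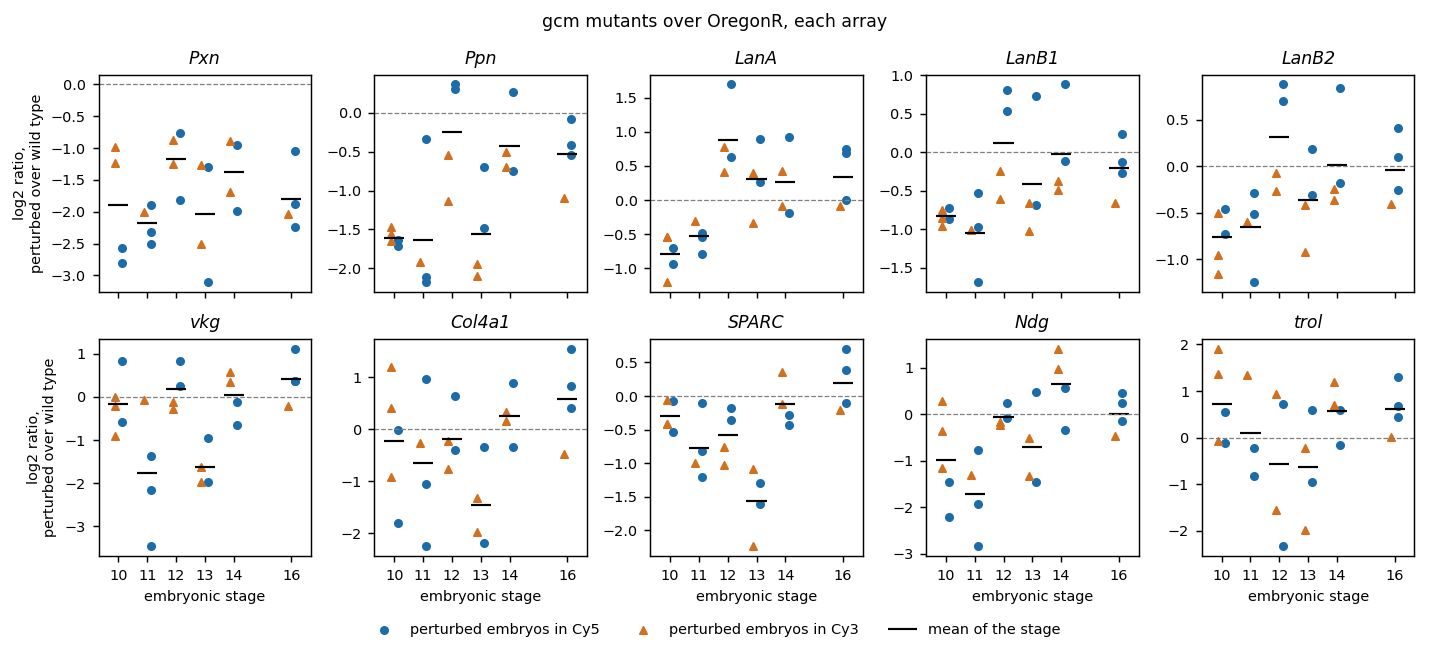
Log2 ratio of gcm mutants over OregonR on every array for each of the 10 genes, by embryonic stage, with circles for mutants labelled in Cy5, triangles for mutants in Cy3 and a black line at the stage mean; each panel has its own vertical scale. All 24 Pxn values lie below 0, whereas LanA lies below 0 on every array of stages 10 and 11 and above 0 on all 4 arrays of stage 12, with their dyes taken as labelled.

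The laminin trimer consists of an alpha, a beta and a gamma chain, encoded here by LanA, LanB1 and LanB2. At stage 10 of the mutants all 3 genes fell, with means of -0.79 ± 0.28 for LanA, -0.83 ± 0.09 for LanB1 and -0.76 ± 0.30 for LanB2 (SD, n = 5), and none of the 15 values reached 0. At stage 11 LanB1 and LanB2 fell again, with means of -1.05 ± 0.48 and -0.66 ± 0.41. LanA, with a mean of -0.53 ± 0.20 and a fitted value of -0.59, missed the threshold (adjusted p = 0.0608). At stage 12 LanA rose, with values of 0.78, 0.41, 1.70 and 0.64 (adjusted p = 0.00356). Without the fourth of these arrays, whose direction is unsure, LanA was at 1.01 (adjusted p = 0.00543). LanB1 at that stage was at -0.61, -0.25, 0.53 and 0.81, and LanB2 at -0.26, -0.08, 0.70 and 0.88. For both genes the arrays with mutants in Cy3 lay below 0 and those with mutants in Cy5 above 0, and neither passed the test. From stage 13 on none of the laminin genes was called.

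Over the 6 stages LanB1 fell by 0.44 ± 0.08 (SE, adjusted p = 3.12e-05, lower on 20 of 25 arrays) and LanB2 fell by 0.28 ± 0.08 (adjusted p = 0.00467, lower on 19). LanA averaged 0.06 ± 0.08, with a 95% interval of -0.10 to 0.23. Within arrays of the mutants LanA lay above LanB1 by 0.46 ± 0.49 (SD, n = 25, higher on 21) and above LanB2 by 0.31 ± 0.44 (higher on 19). In two-sided paired permutation tests, adjusted over 10 such comparisons in both experiments, these differences had p-values of 0.001 and 0.00547. The difference between LanB1 and LanB2 had an adjusted p of 0.0659. With the arrays of stage 12 left out of the model, an alternative added with the data in view, the LanA difference between experiments described below was lost, and without replicate 3 of stage 12 the rise of LanA at that stage was at 0.64 (adjusted p = 0.105).

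The type IV collagen chains are encoded by vkg and Col4a1, which lie next to each other on chromosome arm 2L in the RefSeq annotation. In the mutants vkg fell by 0.49 ± 0.14 (adjusted p = 0.00759, lower on 17 of 25 arrays), whereas Col4a1 was at -0.29 ± 0.17 (adjusted p = 0.213, lower on 15). The within-array difference of the pair was -0.20 ± 1.19 (SD, n = 25) and did not pass (permutation test, adjusted p = 0.573). Both genes fell at stage 13, with vkg at -1.62, -1.98, -1.98 and -0.95 and Col4a1 at -1.32, -1.97, -2.19 and -0.34. At stage 11 vkg was at -0.08, -3.46, -1.37 and -2.16 and passed, and Col4a1 was at -0.26, 0.96, -2.25 and -1.06 and did not. Leaving out single arrays kept this call of vkg, but with array weights it was lost, at -0.66 (adjusted p = 0.185). The array at -3.46 had the lowest weight of all arrays, 0.088. At stages 14 and 16 the arrays of both genes lay on both sides of 0.

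SPARC encodes a collagen-binding glycoprotein. It fell by 0.54 ± 0.10 in the mutants (adjusted p = 2.59e-05, lower on 22 of 25 arrays). The fall was greatest at stage 13, with values of -1.09, -2.24, -1.60 and -1.30, and it was also called at stage 11, with -0.99, -0.11, -1.20 and -0.82. At stage 16 its 4 values were -0.20, -0.11, 0.39 and 0.71, which span 0. SPARC and Col4a1 followed each other over the 6 mutant stages (Pearson r = 0.984, 6 stage values that share arrays, given as a description).

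Ndg encodes nidogen, which binds laminin and collagen, and trol encodes perlecan, a heparan sulphate proteoglycan. Ndg fell by 0.44 ± 0.14 in the mutants (adjusted p = 0.0116, lower on 17 of 25 arrays). Its values were 0.28, -1.15, -0.37, -2.20 and -1.46 at stage 10, and -1.30, -0.76, -1.92 and -2.84 at stage 11, and it was called at both stages. At stage 14 it was at 1.41, 0.98, -0.35 and 0.56 and did not pass. Ndg was the only one of the 10 genes that differed between late and early stages of the mutants, where 5.56% of all probes were called: the mean of stages 13, 14 and 16 exceeded that of stages 10 to 12 by 0.91 ± 0.27 (adjusted p = 0.0323). Dropping any 1 of 11 arrays ended that call, with adjusted p-values between 0.0501 and 0.0803. For trol the average was 0.15 ± 0.24 (95% interval -0.33 to 0.64), with stage means from -0.64 to 0.73, and no stage passed.

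By stage, 6 of the 10 genes fell in mutants at stage 10, where 2.44% of all probes were called lower. At stage 11 there were 7 that fell, beside 5.79% of all probes, and at stage 13 there were 5, beside 3.71%. At stage 12 only Pxn fell, beside 2.91% of all probes called lower, and LanA rose, beside 4.41% called higher. At stages 14 and 16 Pxn alone was called, beside 0.746% and 1.59% of all probes called lower. Leaving out 1 array, for some genes any of several, ended the calls of LanA, LanB1, LanB2 and Ndg at stage 10 (adjusted p at most 0.344), of LanB2 and SPARC at stage 11 (at most 0.125) and of Col4a1 at stage 13 (at most 0.149). The median of the 10 genes was -0.73, -1.01, -0.13, -1.08, 0.03 and 0.13 at stages 10, 11, 12, 13, 14 and 16.

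These stage medians did not run evenly from stage to stage, and those of other gene lists also varied, not all in the same direction. The median of the muscle list, of which 6 of 11 genes were on the array, was 0.34, -0.78, 0.83, -0.75, 0.88 and 0.50 at the same stages, low at stages 11 and 13 as the matrix genes were. The plasmatocyte list without the 10 genes was at -0.40, -0.56, -0.41, -0.06, -0.01 and -0.24, and the fat body list lay between -0.09 and 0.36 throughout. The maternal RNA list, transcripts laid down in the egg, was above 0 at every stage and peaked at 1.09 at stage 13. With the maternal mean as a covariate, 20 member calls were left at single mutant stages where there had been 22 when it was centred within each experiment, and 13 when it was not. The uncentred covariate gives values at a maternal mean of 0, below that of every array. The part of muscle content and embryo age in the stage pattern was not tested. Without the arrays of stage 12, the late minus early comparison called Ppn, LanA, LanB1, LanB2 and Ndg higher, 5 genes instead of 1. Calls over all probes rose as well, to 2071 of 16067 from 836 of 15025.

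**Figure D2:**
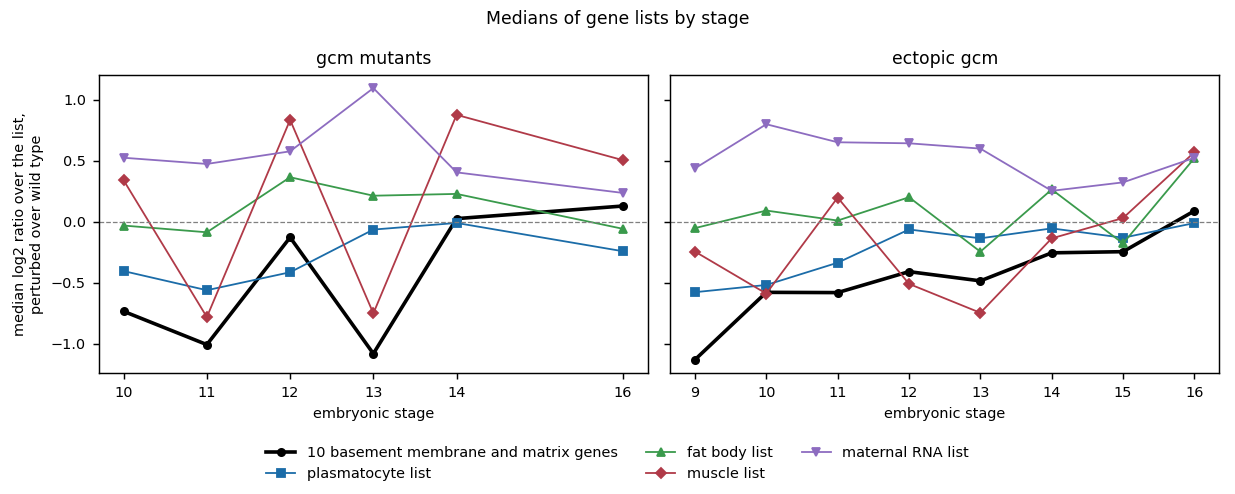
Median log2 ratio of each gene list by stage (black, the 10 genes; coloured, plasmatocyte, fat body, muscle and maternal RNA lists), with gcm mutants on the left and ectopic gcm on the right; each point is the median of the fitted stage values of the list's tested genes. In the mutants the black line drops at stages 11 and 13 (-1.01 and -1.08) together with the muscle list, and with ectopic gcm it climbs from -1.13 at stage 9 to 0.09 at stage 16.

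Markers of other cell types in the loss-of-function average were as follows. Of 12 tested plasmatocyte genes 5 fell and 0 rose (median -0.41). They included the phagocytosis receptor genes NimC4 at -1.72 ± 0.11 and crq at -0.76 ± 0.11, and the growth factor receptor gene Pvr at -0.62 ± 0.10. Of 4 crystal cell genes 2 fell, the prophenoloxidase genes PPO2 and PPO1, at -2.23 ± 0.15 and -1.55 ± 0.16. Of 6 fat body genes 2 rose, among them Fbp1 at 1.02 ± 0.28, and apolpp fell by 0.83 ± 0.17. Of 9 glial genes 6 fell and 1 rose. None of 5 muscle genes was called (median 0.37), and 0 of 1 heart genes. Of 4 tracheal genes 2 fell, and of 19 maternal genes 12 rose and 0 fell (median 0.56). Since ratios hold no level, the summed level of a list and a marker at 0 cannot be given, and the part of these cell types in the fall of the matrix genes was not tested.

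Maternal genes were called mostly higher in both experiments, so each average was also read at a maternal mean of 0, added with the data in view, in which the mean log2 ratio of the maternal list entered as a covariate without centring. That mean was above 0 on every array, from 0.199 to 1.06 in the gain of function and from 0.083 to 1.39 in the mutants. The values at 0 are thus an extrapolation along a fitted slope, and they cannot decide the part of maternal RNA in the falls. In the mutants Pxn at -1.75 (adjusted p = 0.000222), Ppn at -0.78 (adjusted p = 0.00649) and LanB1 at -0.58 (adjusted p = 0.0212) stayed past the threshold. LanB2, vkg, SPARC and Ndg did not, and Ndg changed sign to 0.05. On arrays without centring, Pxn at -1.55 and Ppn at -0.89 were the 2 genes past the threshold, while LanB1, LanB2, vkg, SPARC and Ndg lay between -0.38 and -0.13. Over all probes 471 of 15025 were called lower there, beside 2066 in the main setting.

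The gain-of-function average asked the same of ectopic gcm over 8 stages. Here too the direction was down: 8 of the 10 genes fell and 0 rose, where 27.8% of all probes were called in either direction and 13.6% lower. The median of the 10 genes was -0.42, beside -0.01 over all tested probes. The falls were more alike than in the mutants. Pxn fell by 0.58 ± 0.12 (SE, adjusted p = 0.000266, lower on 27 of 33 arrays), Ppn by 0.57 ± 0.08 (adjusted p = 1.71e-07, lower on 30 of 32) and Col4a1 by 0.56 ± 0.15 (adjusted p = 0.00267, lower on 23 of 32).

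All 3 laminin genes fell with ectopic gcm. LanA fell by 0.50 ± 0.07 on 30 of 33 arrays, LanB1 by 0.41 ± 0.07 on 27 and LanB2 by 0.42 ± 0.07 on 31, with adjusted p-values of 1.98e-07, 5.83e-06 and 2.16e-06. The within-array differences among them were between -0.08 and 0.01 and did not pass (permutation tests, adjusted p from 0.243 to 0.876). SPARC fell by 0.42 ± 0.08 on 23 of 33 arrays and Ndg by 0.39 ± 0.12 on 26. The collagen gene vkg at -0.27 ± 0.13 had an adjusted p of 0.113, and trol was at -0.24 ± 0.20 (adjusted p = 0.451). Read at a maternal mean of 0 as above, LanB1 at -0.56 (adjusted p = 0.0415) was the 1 gene of the 8 that stayed past the threshold. Over all probes 1145 of 14780 were called in that reading, beside 4104 in the main setting. LanA was then at -0.38, LanB2 at -0.48, Pxn at -0.61, Ppn at -0.32, SPARC at -0.18 and Col4a1 at -0.05, and Ndg changed sign to 0.10. LanB2 and Pxn thus lost their calls although their values did not shrink. Without centring, LanB1 at -0.38, SPARC at -0.39 and Ndg at -0.36 were no longer past the threshold.

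**Figure D3:**
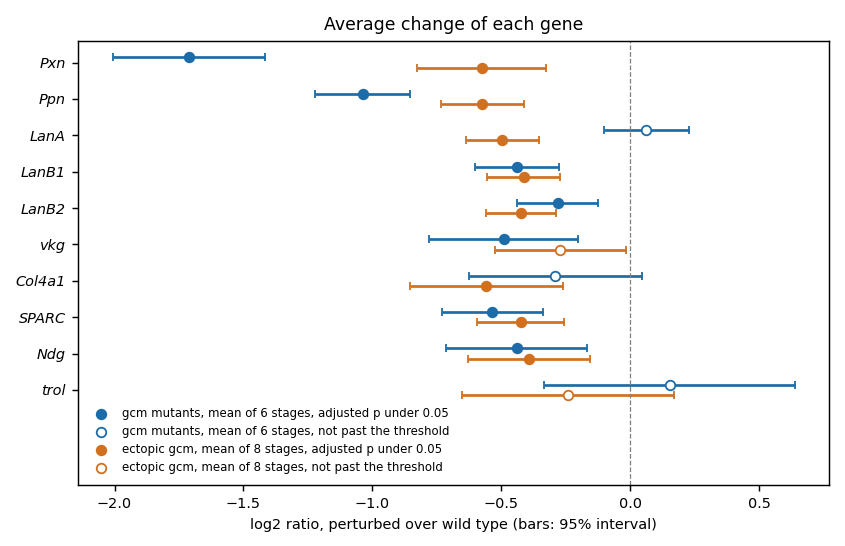
Average log2 ratio over wild type of each of the 10 genes (points) with its 95% interval (bars), for gcm mutants (blue, 6 stages) and ectopic gcm (orange, 8 stages); filled points passed an adjusted p of 0.05. Pxn (-1.71) and Ppn (-1.04) stand below the rest in the mutants, and LanA is at 0.06 in the mutants and at -0.50 with ectopic gcm.

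With ectopic gcm the most calls were made at stage 9, where 7 genes fell beside 4.62% of all probes called lower and the median of the 10 genes was -1.13. At that stage LanA was at -2.59, -1.68, -0.86 and -0.65, LanB1 at -1.73, -1.13, -0.50 and -0.74, and LanB2 at -1.65, -1.17, -0.53 and -0.67. All 12 values lay below 0, and the lower ones came from the arrays with perturbed embryos in Cy3. The lowest value of each gene came from replicate 1, which lacked 49.6% of probes, had 60.3% of its spots at 0 and had an array weight of 0.22. Leaving out any single array kept the stage 9 calls of the 3 laminin genes. Ppn was at -2.08, -0.93 and -0.83 on its 3 measured arrays (-0.96 with an adjusted p of 0.0622 without the first of these), and SPARC at -0.08, -0.98, -2.05 and -1.28. The calls of Pxn and trol at stage 9 rested on single arrays. Pxn was at 0.87, -0.89, -3.77 and -0.87, and without the third array its stage value was -0.39 (adjusted p = 0.634). For trol the values were -1.99, -7.58, 0.63 and -0.46, and without the second array the stage value was -0.72 (adjusted p = 0.486). On arrays without centring, the stage 9 calls of Ppn, LanB1, LanB2, SPARC and Pxn were lost, with adjusted p-values from 0.0807 to 0.133. At stage 9, where gcm itself was not called, 6 of 12 plasmatocyte genes also fell (median -0.58) and 9 of 22 maternal genes rose. Leaving out the stage 9 arrays kept the count of genes called in the average at 8.

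At stage 10 Ppn and LanB1 fell, with Ppn at -1.44, -1.004, -0.45 and -0.37 and LanB1 at -1.34, -0.70, -0.35 and -0.26, beside 1.14% of all probes called lower. Each of these calls was lost without any of several single arrays. None of the 10 genes was called at stages 11 to 16, where 2.9%, 2.06%, 3.15%, 1.58%, 0.481% and 0.222% of all probes were, in order of stage. At these stages 13 gene values had an unadjusted p under 0.05, a count given with no share over all probes. The stage medians of the 10 genes were -0.58 at stages 10 and 11, -0.41, -0.48, -0.25 and -0.25 at stages 12 to 15, and 0.09 at stage 16. In the comparison of stages 13 to 16 with stages 9 to 12 limma called 0 of the 10 genes, beside 1.36% of all probes. All 10 differences were above 0 (median 0.39), where over all tested probes the median was -0.01 and 51.6% were below 0. Of the 10 genes 7 had an unadjusted p under 0.05, again with no share over all probes. Without that share neither unadjusted count can be called more than usual. With array weights 4 genes passed in that comparison: Pxn at 0.84, SPARC at 0.56, Ppn at 0.38 and LanB1 at 0.30. Over all probes 983 of 14780 passed with those weights, beside 201 in the main setting.

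**Figure D4:**
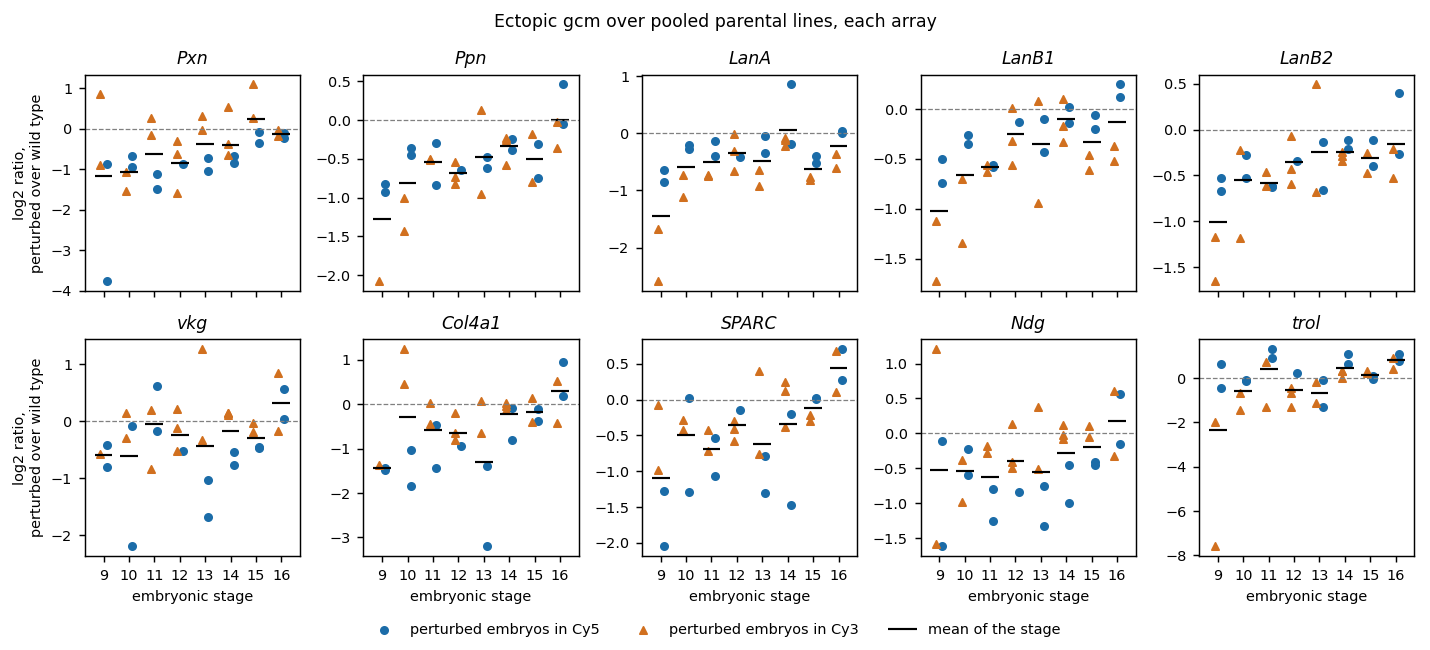
Log2 ratio of embryos with ectopic gcm over pooled parental wild type on every array for each of the 10 genes, by stage, with circles for perturbed embryos in Cy5, triangles for perturbed embryos in Cy3 and a black line at the stage mean; each panel has its own vertical scale. The 3 laminin genes lie below 0 on all 4 arrays of stages 9, 10 and 11, and the trol panel shows the single array at -7.58.

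The experiments share no arrays, and the test of their difference used the 6 stages they have in common. Pxn and Ppn lay lower in the mutants than with ectopic gcm, by 1.10 ± 0.20 (SE, adjusted p = 8.77e-05) and 0.58 ± 0.13 (adjusted p = 0.000901), beside 17.4% of all probes called in that comparison. LanA lay lower with ectopic gcm, by 0.38 ± 0.11 (adjusted p = 0.0148), a difference of -0.24 (adjusted p = 0.21) without stage 12. For the other 7 genes no difference was called, with 95% intervals of -0.12 to 0.34 for LanB1, -0.28 to 0.16 for LanB2 and -0.10 to 0.45 for SPARC. The intervals of vkg, Col4a1 and Ndg were wider and that of trol the widest, from -0.79 to 0.57. The wild types differ between the experiments, OregonR in one and parental lines in the other, so the wild type and the perturbation cannot be told apart in these differences.

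Among the 10 genes the closest pair over the 14 stage values of both experiments was LanB1 with LanB2 (Pearson r = 0.929). The chains LanA and LanB2 had r = 0.881, SPARC and Col4a1 0.873, and the neighbouring genes vkg and Col4a1 0.680, while Pxn with LanA had -0.15. These correlations are descriptions, and the stage values share arrays, depth and embryo collections. After each stage's mean and the dye term were removed, the 45 pairs of the 10 genes had a median r over arrays of 0.17 with ectopic gcm, beside 0.175 for pairs of all genes on every array. In the mutants it was 0.373, beside 0.288.

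Ranked by the correlation of their 14 stage values, the genes most like Pxn among 7885 were NimC4 (r = 0.909), gcm itself (0.907), CG17739 (0.907), Rbsn-5 (0.907) and Nagk (0.904). Those most like the mean of the 3 laminin genes were Rip11 (0.954), Naus (0.935), lbk (0.935), CG13487 (0.918) and hbs (0.916). These rankings were read with no test.

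Other genes of the matrix and of its secretion and receptors were listed by name, 30 in all, of which 27 were on the array. In the mutants 5 of 20 tested fell and 1 rose (median -0.09). PH4alphaEFB, which encodes the prolyl hydroxylase that modifies collagen before secretion, fell by 1.30 ± 0.09 on 25 of 25 arrays. Plod, the lysyl hydroxylase gene of collagen, fell by 0.86 ± 0.11. Tig, which encodes the integrin ligand tiggrin, fell by 0.48 ± 0.14, and strat, whose product acts in polarised secretion of basement membrane proteins, fell by 0.47 ± 0.11. Crag, a gene needed to direct basement membrane proteins to the basal side of epithelial cells, rose by 0.60 ± 0.11.

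With ectopic gcm 8 of 23 tested genes of that list fell and 5 rose (median 0.02). The lowest were PH4alphaEFB at -0.52 ± 0.08, the laminin alpha chain gene wb at -0.42 ± 0.06, the thrombospondin gene Tsp at -0.36 ± 0.13 and the integrin alpha gene mew at -0.36 ± 0.06. The highest were Crag at 0.73 ± 0.10, the small GTPase gene Rab10 at 0.60 ± 0.08, the integrin-linked kinase gene Ilk at 0.49 ± 0.08 and the integrin beta gene mys at 0.23 ± 0.07. PH4alphaEFB and Plod were higher with ectopic gcm than in the mutants by 0.80 ± 0.13 and 0.84 ± 0.15 over the shared stages (adjusted p = 7.49e-06 and 3.62e-05). The gene wb, the other laminin alpha chain, was at 0.10 ± 0.07 in the mutants (adjusted p = 0.345).

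Cell type lists in the gain-of-function average gave 0 higher and 5 lower of 11 plasmatocyte genes (median -0.13), with Pvr at -0.54 ± 0.09 and NimC4 at -0.50 ± 0.09. Of the 4 crystal cell genes PPO1 at -0.77 ± 0.14 and PPO2 at -0.57 ± 0.13 fell. Of 5 fat body genes Lsp2 rose by 0.82 ± 0.29 and 1 other fell. The glial list gave 4 higher and 3 lower of 9, the muscle list 0 and 1 of 6, the heart list 0 and 1 of 2 and the tracheal list 0 and 4 of 4. Of 21 maternal genes 13 rose and 1 fell (median 0.41), among them smg, a translational repressor gene, at 2.04 ± 0.09. The part of these lists in the fall of the matrix genes was not tested, beyond the maternal covariate whose reading at 0 is an extrapolation.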

How the data were processed

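Probes were named through the platform annotation, which gave 1 gene for 13455 of 23808 probes, several for 153 and none for 10200. The members and gene lists were chosen with earlier results of these data known. Per the labels, images were read with ScanArray software 3.1 and GenePix 5.0, an array was kept when at least 30% of genes had a standard deviation of the log ratio under 1/3 between repeat spots, and at least one dye swap was made in each set of repeats. Background correction and normalization are not given in the sources used here. Per the file headers and labels, each deposited value is a spot's log2 ratio (Cy5 to Cy3), and the arrays' medians differed. Depth has no counterpart on arrays, and their number limits the precision. The labels call the repeats independent experiments without saying more, so p-values measure the spread between these samples.

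Values of exactly 0 and of size 9 or more were taken as missing (1.65% to 60.3% of spots were 0), repeat spots were averaged and array medians were set to 0. The dyes in the labels gave each ratio's direction, perturbed over wild type. A linear model per probe over all 58 arrays held 14 group means and a dye term for each experiment, and its variances were moderated with limma 3.58.1 in R 4.3.3. P-values were adjusted by Benjamini-Hochberg over all probes tested in a comparison, at 0.05. A stage needed 3 arrays and both dye orientations. For trol the probe on more arrays was used; the other was not tested in the averages, and its stage values, from -1.14 at gain-of-function stage 9 to 1.61 at loss-of-function stage 12, had no call. The fit was tested on simulated data with known answers. Paired differences between members were tested with 100000 sign permutations, a test added after the data were seen. Named were all 10 members, the up to 4 lowest and 4 highest of the other matrix genes past the threshold in each average, up to 3 genes per marker list past it, and the 5 genes most like Pxn and the laminins; wb in the mutants was added after its value was seen. Gene names and neighbours come from RefSeq (12851 probes matched).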

Additional observations from a re-analysis of the deposited data

Results flagged for a closer look

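Single arrays stood apart from the others of their stage in 5 of the 150 groups of values tested, and chance gives about 1 in 20. Ppn on replicate 2 of loss-of-function stage 11 was at -0.335, where the next value was -1.92. LanB2 on replicate 4 of loss-of-function stage 14 was at 0.845, where the next was -0.18. On replicate 4 of gain-of-function stage 14 LanA was high at 0.856 (next -0.08) and Col4a1 was low at -0.807 (next -0.13). LanB2 on replicate 2 of gain-of-function stage 11 was at -0.458 beside -0.61 for the next, a small gap in a group whose other 3 values lay close together.

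Other results differed between groups by the test of the difference itself. Pxn and Ppn were higher with ectopic gcm than in mutants by 1.10 and 0.58, LanA was lower by 0.38 (-0.3794), and gcm was higher by 2.41. Between late and early stages gcm differed by 0.81 in the gain of function, and Ndg by 0.91 in the loss of function.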

How the results depend on the processing

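None of the 10 genes changed sign in an average while past the threshold; with the maternal mean as an uncentred covariate Ndg, no longer called, turned from -0.39 to 0.10 in the gain of function and from -0.44 to 0.0501 in the loss of function. The cause of the changes below was not tested. Numbers of genes called in the main setting were 8 in the gain-of-function average, 7 in the loss-of-function average and 3 in the difference; calls at single stages numbered 9 and 22, and late minus early gave 0 and 1, in the same order of experiments. Arrays not centred gave 5, 2, 1, 2 and 8, and 4 for the loss-of-function late minus early. Over all probes 475 of 14780 and 471 of 15025 were then called lower in the averages, beside 2014 and 2066 in the main setting. The difference had 464 of 13264 probes called, beside 2308. That late minus early comparison had 2654 of 15025, beside 836. Spot pairs with an SD under 1/3, which tested far fewer probes, gave 1 and 4 in the averages, 1 in the difference, 16 gain-of-function stage calls, and 1 and 0 in late minus early. Over all probes 2012 of 3183 and 1483 of 2116 were called in those averages and 958 of 1720 in the difference. In late minus early 648 of 3183 and 388 of 2116 were called. All these shares were larger than in the main setting. There LanB1 alone of the 10 genes was tested in the gain-of-function average, and it stayed called. Ppn, LanA, LanB1, LanB2 and SPARC were tested in the loss-of-function average, and all but LanA, not called in the main setting either, were called. Only LanA and LanB1 were tested in the difference, and Ndg was not tested in late minus early. The uncentred maternal covariate, read outside the measured maternal means, gave 1 and 3 in the averages, beside 1145 of 14780 and 2260 of 15025 probes. At single stages it gave 4 and 13. Centred within each experiment, it kept 8 and 7. Gain-of-function stage calls were 29 with array weights, 5 with zeros kept and 3 without stage 9, and loss-of-function stage calls were 12 on the arrays of that experiment alone. The share of all probes called at single stages in these settings is not given here. The gain-of-function late minus early count was 4 with array weights, beside 983 of 14780 probes. It was 1 each on scaled arrays, without the 3 arrays lacking over 40% of probes, and on one experiment alone. Over all probes 434, 124 and 401 of 14780 were called in these settings. The loss-of-function late minus early count was 2 with print blocks centred, 5 without stage 12, and 0 without those 3 arrays and on one experiment alone. Over all probes 949 of 15025, 2071 of 16067, 816 of 15025 and 304 of 15025 were called in these settings, in the same order.

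Replicate numbers did not pair samples: same-numbered arrays had median correlations of -0.04 in both experiments, and 5 of 33 and 0 of 25 arrays correlated best with their own number. With the replicate block the gain-of-function average had 4 genes called, the loss-of-function average 5 and the loss-of-function late minus early 0. Over all probes 671 of 14780 and 944 of 15025 were then called lower in the averages, beside 2014 and 2066 in the main setting. That late minus early comparison had 763 of 15025 probes called, beside 836. Leaving out single arrays gave 8 to 9 and 7 to 7 genes in the averages, 3 to 3 in the difference, 6 to 10 and 19 to 24 stage calls, and 0 to 1 and 0 to 2 in late minus early. The difference between experiments cannot be fitted on one experiment alone.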
